A study of Mus musculus with 4 samples.

Results

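Trypsinogens are the inactive precursors of trypsin that pancreatic acinar cells store and secrete, and Spink1 encodes the small secreted inhibitor that is packed with them. The genes described are 8 of the 32288 features measured: the trypsinogen genes Prss1, Prss2, Prss3, Try4, Try5, Gm5771 and Gm2663, and Spink1. They were taken by name, with no threshold on their values, and all 8 were measured in every mouse.

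As background, trypsinogen becomes trypsin when a short peptide is removed from its front end, normally by enteropeptidase in the gut, and trypsin then activates the other digestive zymogens. Cathepsin B can make the same cut inside the acinar cell, cathepsin L and chymotrypsin C degrade trypsinogen, and Spink1 binds trypsin that has been activated too early. Inherited changes in human trypsinogen and SPINK1 genes are known causes or risk factors of pancreatitis, so the balance between zymogen and inhibitor is of long-standing interest.

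Single-cell RNA was measured in sorted EYFP+ cells of mouse pancreas. All 4 mice carried Ptf1aCre-ERTM;ROSAYFP/+ in a CD-1 background, so that tamoxifen given by gavage switched on EYFP in cells using the Ptf1a promoter, mainly acinar cells. All 4 also received caerulein, an analogue of the hormone cholecystokinin that overstimulates acinar cells and causes pancreatitis, from 10 weeks of age on 5 days of each week. The groups were 2 weeks of caerulein (n = 2 mice) and 4 weeks (n = 2 mice), and no uninjured group enters the comparisons. Labelled acinar cells can turn into other cell types during injury, and the study follows these types. The digestion buffer held a trypsin inhibitor protein from soybean, which is not a transcript counted here.

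The 4 mice gave 4715 to 6255 cells and between 72459531 and 103610807 unique molecular identifiers (UMIs, 1 per captured RNA molecule). The authors gave a type to 13362 of 21140 cells, those of their matrix filtered to YFP+ cells. Label checks used defining markers in CPM (UMIs of a gene for every 1000000 UMIs of the mouse and type). Cpa1, an acinar enzyme, lay between 18165 and 21511 in Acinar and between 167 and 381 in MucinDuctal cells, and the mucin Muc6 between 28.1 and 101 in Acinar and between 2057 and 6601 in MucinDuctal cells. Acinar/MucinDuctal cells held both, with Cpa1 at 7873 to 9497 and Muc6 at 1034 to 3347. Tuft cells held Dclk1 at 1370 to 1666, and enteroendocrine cells (EEC) held Chga at 1081 to 1642. The name Acinar.Prolif fitted its Mki67 level, 169 to 232. Among 21068 distinct barcodes, 67 occurred in more than 1 mouse.

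Free acinar RNA enters droplets of every cell type, so a background was measured in cells that should make no trypsinogen. These were 2647 cells without a deposited type that held UMIs of at least 3 of 12 leukocyte genes and none of Epcam or Cdh1, called leukocyte-like here. All 7778 cells without a type were not used as that background, because they held 804, 228, 687 and 1252 CPM of Spink1 by mouse, where the leukocyte-like cells among them held 211, 32.7, 93.2 and 211. Their Ptprc, which encodes CD45, lay between 371 and 409 CPM. Trypsinogen UMIs per leukocyte-like cell numbered 54.9 and 9.52 at 2 weeks, 19.0 and 55.8 at 4 weeks. Background therefore differed between mice, and 2-week mouse 2 had the least of it. The same mouse had the lowest summed trypsinogen in Acinar cells, and values without it are given where it matters.

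The 7 trypsinogen genes lie within one 529.25 kb stretch of chromosome 6 (GRCm38, chr6:40995830-41525079), inside the T cell receptor beta region, and each has 5 exons. From low to high coordinates they are Gm2663 (chr6:40995830-40999479, minus strand), Try4 (chr6:41302269-41305532, plus), Try5 (chr6:41311233-41316841, minus), Prss3 (chr6:41373814-41377678, minus), Gm5771 (chr6:41392356-41397230, plus), Prss1 (chr6:41458932-41463786, plus) and Prss2 (chr6:41521787-41525079, plus). The copies are close in sequence, which bears on counting, because the libraries read transcript ends. Over the last 300 transcript bases Try4 and Try5 were 96.33% identical and shared a run of 104 bases. Prss1 and Gm5771 shared a run of 147 bases, and Prss3 and Gm5771 a run of 131. UMIs of such pairs may be divided between the copies with error, so each single-gene value of Prss1, Prss3, Gm5771, Try4 and Try5 is uncertain, while the sum over the 7 is less so.

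Promoters are shown for 4 members to let the copies be compared: Prss1 and Gm5771, whose promoter windows are alike, Try4 as the trypsinogen with the highest mean level, and Prss2 as the one that varied least between mice. RefSeq promoters matched 6 of the 7 trypsinogens. Each stretch runs 5′ to 3′ from 250 bases before the RefSeq start to 50 after it (GRCm38.p6, plus strand): Prss1 at chr6:41458680-41458979, Gm5771 at chr6:41392106-41392405, Try4 at chr6:41302022-41302321 and Prss2 at chr6:41521526-41521825. Capitals mark 4 motifs searched on both strands, an E-box, a TC-box, a TATA box and a GATA motif, whose letters follow the sequences. A motif on the opposite strand appears as its reverse complement. The E-box and TC-box are the 2 parts of the known site of the PTF1 complex, which contains Ptf1a and drives acinar enzyme genes.
Prss1: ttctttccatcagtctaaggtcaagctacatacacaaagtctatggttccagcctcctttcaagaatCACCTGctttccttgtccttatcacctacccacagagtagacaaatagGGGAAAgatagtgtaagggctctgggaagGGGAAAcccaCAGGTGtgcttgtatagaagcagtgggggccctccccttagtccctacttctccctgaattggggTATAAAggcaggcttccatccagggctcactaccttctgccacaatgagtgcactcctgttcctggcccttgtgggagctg
Gm5771: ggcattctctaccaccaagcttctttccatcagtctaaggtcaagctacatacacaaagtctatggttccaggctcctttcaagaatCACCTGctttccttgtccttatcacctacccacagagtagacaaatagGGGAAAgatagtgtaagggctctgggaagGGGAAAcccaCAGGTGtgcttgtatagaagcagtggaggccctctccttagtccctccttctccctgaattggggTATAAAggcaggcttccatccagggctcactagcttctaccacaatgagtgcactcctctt
Try4: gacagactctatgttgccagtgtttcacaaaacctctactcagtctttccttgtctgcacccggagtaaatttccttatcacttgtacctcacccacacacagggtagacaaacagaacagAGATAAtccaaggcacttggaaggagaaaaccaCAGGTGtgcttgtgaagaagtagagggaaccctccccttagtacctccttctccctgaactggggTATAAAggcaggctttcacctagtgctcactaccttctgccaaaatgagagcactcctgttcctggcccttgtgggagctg
Prss2: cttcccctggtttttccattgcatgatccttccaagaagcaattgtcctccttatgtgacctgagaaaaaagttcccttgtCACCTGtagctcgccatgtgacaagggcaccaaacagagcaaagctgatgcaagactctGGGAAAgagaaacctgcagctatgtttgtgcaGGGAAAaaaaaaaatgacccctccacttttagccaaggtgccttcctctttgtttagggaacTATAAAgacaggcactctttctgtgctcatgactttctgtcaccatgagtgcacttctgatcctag

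All 6 promoters held the E-box, searched as CACCTG, against 20.21% of 32851 mouse promoters of the same length. All 6 held the TATA box, searched as TATAAA, against 13.62%. The TC-box, searched as TTTCCC, was in 4 of 6 promoters (25.25% of all). The GATA motif, searched as AGATAA, was in Try4 alone (11.18% of all). Prss1 and Gm5771 were 85.31% identical in this window, with the same order of motifs. In Prss1 and Try4 an E-box starts at position -96 and the TATA box at -31, counted from the start site. A match is a description of letters and not a bound site, and the 6 genes are copies of one ancestral gene. Spink1 lies apart from the cluster, on chromosome 18 (chr18:43728082-43737557, minus strand, 4 exons).

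In Acinar cells the trypsinogens together made up a large part of all RNA. Their sum was 116782 and 69287 CPM at 2 weeks, then 96695 and 144569 at 4 weeks, and Spink1 was at 3024, 1393, 2866 and 3354 CPM in the same order. The groups overlapped for both. The sum and the balance leave out 4 other measured genes of the cluster. The highest of these in Acinar cells was 2210010C04Rik, at 7642 to 16861 CPM. Reads come from transcript ends, 1 UMI per molecule, so levels of different genes were not divided by length; the reference transcripts of the 7 trypsinogens and Spink1 are between 729 and 862 bases long.

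Try4 was at 50013 and 18354 CPM at 2 weeks, then at 37689 and 44666 at 4 weeks. Prss2 was at 27226 and 25625, then 26363 and 30740 CPM. Try5 was at 28317 and 19165, then 24764 and 50462 CPM. These 3 were the most abundant in each mouse, but their order was not fixed: Try4 was first in 2 mice, Prss2 in 2-week mouse 2 and Try5 in 4-week mouse 2. Neighbours in that order therefore did not differ beyond the spread between mice. The other 4 were lower in every mouse. Gm2663 was at 3136 and 3586, then 4752 and 7330 CPM. Prss3 was at 4167 and 1291, then 1703 and 5724 CPM, and Gm5771 at 2769 and 760, then 1051 and 3836 CPM. Prss1 was the lowest in each mouse, at 1154 and 506, then 374 and 1811 CPM.

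The members differed in how much they varied between mice. Prss2 in Acinar cells differed by 1.20-fold between its lowest and highest mouse, whereas Prss1 differed by 4.85-fold, Prss3 by 4.43-fold and Gm5771 by 5.05-fold. The last 3 were high in the same mice, 2-week mouse 1 and 4-week mouse 2, which belong to different groups. Gm10334, another gene of the cluster that shares a run of 125 bases with Prss3, followed them at 4.99-fold. Try4 (2.72-fold), Try5 (2.63-fold), Gm2663 (2.34-fold) and Spink1 (2.41-fold) lay between. The folds of Try4 and Spink1 rest on 2-week mouse 2. Without it Try4 ran from 37689 to 50013 CPM and Spink1 from 2866 to 3354, beside 26363 to 30740 for Prss2. The mice come from an outbred background, and a part of strain or of the alignment of similar copies in these folds was not tested.

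**Figure D1:**
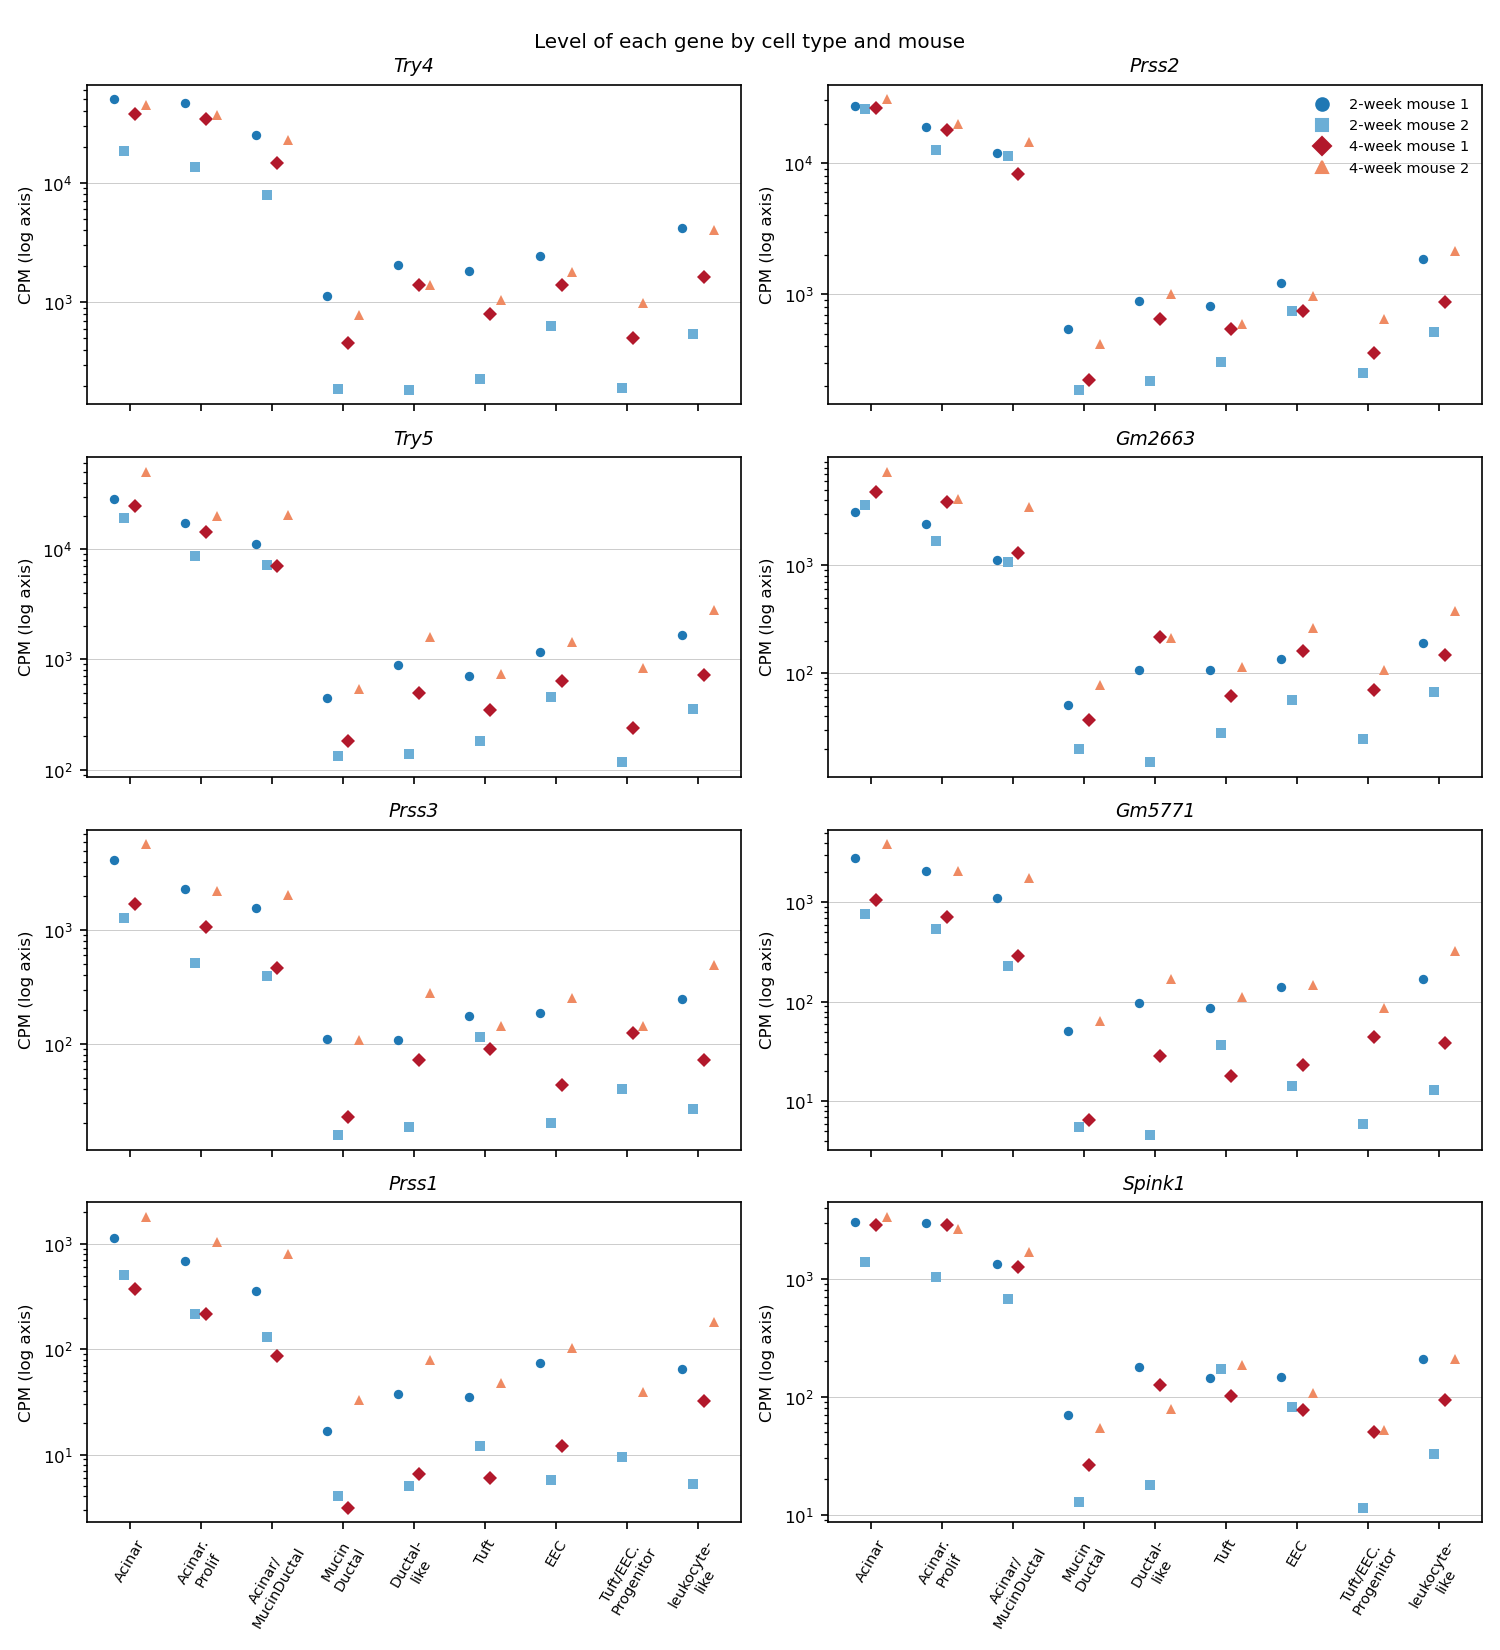
Level of each of the 8 genes in CPM (log axis) by deposited cell type, with leukocyte-like cells as the background on the right; each symbol is 1 mouse. All 8 genes were higher in each of the 3 acinar types than in every other kind of cell drawn, in each mouse. The symbols of 2-week mouse 2 (squares) were low for most genes in most types, Acinar cells among them. Groups under 20 cells are not drawn, nor is Prss1 in Tuft/EEC.Progenitor cells of 4-week mouse 1, which had 0 UMIs in 25 cells.

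Along Acinar, Acinar/MucinDuctal and MucinDuctal, zymogen and inhibitor were lower together. Summed trypsinogen in Acinar/MucinDuctal cells was 51983 and 28287 CPM at 2 weeks, then 32089 and 65524 at 4 weeks. This was 2.46-fold lower than in Acinar cells of the same mouse (log2 difference -1.30 ± 0.21, SD, n = 4 mice). Spink1 was at 1346 and 673, then 1269 and 1677 CPM, 2.14-fold lower (-1.10 ± 0.09). All 7 trypsinogens and Spink1 were lower in this type in 4 of 4 mice, and both quantities stayed above free RNA: per cell, trypsinogen was 7.61 to 88.4 and Spink1 9.53 to 98.4 times the leukocyte-like level of the same mouse. The mean log2 differences of the trypsinogens ran from -1.15 for Try4 to -1.73 for Prss1, and Spink1 and Try4 did not differ beyond the spread, with Try4 the less lowered in 2 of 4 mice. With acinar enzymes left out of the total, the differences from Acinar cells were -2.02 for summed trypsinogen and -1.82 for Spink1. Cell types had been defined by the authors on the same counts, so differences between types are descriptions and carry no p-value.

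In MucinDuctal cells the sum was 2344 and 553 CPM at 2 weeks, then 932 and 2016 at 4 weeks. This was 82.5-fold lower than in Acinar cells (-6.37 ± 0.59). Spink1 was at 69.6 and 12.8, then 26.3 and 54.0 CPM, 75.1-fold lower (-6.23 ± 0.65). With acinar enzymes left out of the total these were -7.47 and -7.33. By mean UMIs per cell the trypsinogen content was near that of the background. MucinDuctal cells held 54.5, 14.8, 17.4 and 37.2 trypsinogen UMIs per cell, which was 1.03 ± 0.373 times the leukocyte-like cells of the same mouse and above them in 1 of 4 mice. Medians were 43, 10, 11 and 31 against 38, 7, 8 and 27 UMIs, higher in MucinDuctal cells of each mouse. By CPM the sum was 0.280, 0.362, 0.265 and 0.195 times the leukocyte-like level, so the comparison depends on the measure. Spink1 UMIs per cell were 1.62, 0.343, 0.492 and 0.997 in MucinDuctal cells, against 1.38, 0.204, 0.503 and 1.14 in leukocyte-like cells. In mean UMIs per cell each of the 7 trypsinogens taken alone was between 0.949 and 1.49 times the leukocyte-like level on average. Median depth was 15110 to 21810 UMIs in MucinDuctal and 4115 to 5613 in leukocyte-like cells.

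The share of cells with Spink1 depended on depth. A Spink1 UMI was found in 70.9, 25.1, 33.6 and 58.0% of MucinDuctal cells and in 64.9, 17.3, 29.8 and 49.0% of leukocyte-like cells, against 99.6, 89.5, 99.3 and 99.3% of Acinar cells. With every cell thinned to 1500 UMIs the shares were 10.8, 2.10, 4.77 and 8.83% in MucinDuctal and 28.7, 6.41, 13.1 and 25.1% in leukocyte-like cells. MucinDuctal cells were thus above leukocyte-like cells in 4 of 4 mice before thinning and below them in 4 of 4 after it, and thinning also scales down free RNA in the deeper cells. Spink1 UMIs per cell were above the background in 2 of 4 mice. In 13 of 3983 MucinDuctal cells Prss3 had at least 10 UMIs and outnumbered the other trypsinogens together. The ratio of Spink1 to trypsinogen in this type was close to that of free RNA but lay above it in each mouse: the log2 ratio minus that of leukocyte-like cells was 0.21 ± 0.13 (SD, n = 4), from 0.09 to 0.39. Spink1 was 1.18, 1.09, 1.07 and 1.31 times what that ratio gives. The 95% exact Poisson intervals were 1.09 to 1.28, 0.990 to 1.19, 0.974 to 1.17 and 1.24 to 1.38 by mouse, the middle 2 including 1. They cover counting error of Spink1 in MucinDuctal cells only. The leukocyte-like ratio is taken as exact, though it rests on 1009, 125, 377 and 633 Spink1 UMIs.

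The balance was taken as Spink1 UMIs per 1000 trypsinogen UMIs. In Acinar cells it was 25.9 and 20.1 at 2 weeks, 29.6 and 23.2 at 4 weeks. In Acinar/MucinDuctal cells it was 25.9, 23.8, 39.6 and 25.6, and in MucinDuctal cells 29.7, 23.2, 28.3 and 26.8. Leukocyte-like cells held 25.2, 21.4, 26.5 and 20.4. The values of all 4 kinds of cell overlapped. The log2 ratio in Acinar/MucinDuctal cells minus that in Acinar cells of the same mouse was 0.20 ± 0.18 (SD, n = 4) and above 0 in 3 of 4 mice. In MucinDuctal cells it was 0.14 ± 0.14, and -0.15 once cells were thinned to 1500 UMIs. Between Acinar and Acinar/MucinDuctal cells, the pair of types well above the background, the balance thus differed by about its spread between mice while both levels were more than 2-fold lower.

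Acinar/MucinDuctal cells are mostly shallow, with a median of 3387, 19556, 2659 and 3555 UMIs, so that 2-week mouse 2 stands apart. Most of them belong to author clusters 3 and 4, which differ in level. Cluster 3 held 82459, 49596, 54133 and 88926 CPM of trypsinogen and cluster 4 held 15005, 8381, 13384 and 31492 CPM, with no overlap. Leukocyte-like cells ran from 1530 CPM in 2-week mouse 2 to 10329 in 4-week mouse 2, so cluster 4 lay closer to the background than cluster 3. Per 1000 trypsinogen UMIs, Spink1 was at 24.6, 22.0, 36.6 and 24.5 in cluster 3. In cluster 4 it was at 34.8, 33.7, 50.7 and 30.4, higher in each of the 4 mice. The log2 ratio of cluster 4 minus Acinar was 0.58 ± 0.21 (4 of 4 mice above 0), but 0.22 in cells thinned to 1500 UMIs and 0.36 without the deepest 5% of cells, so this value depends on how cells of unequal depth are weighted.

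Proliferating acinar cells had less zymogen per inhibitor than other Acinar cells. Acinar.Prolif cells held 33.2, 27.4, 40.2 and 30.9 Spink1 UMIs per 1000 trypsinogen UMIs, above Acinar cells of the same mouse in 4 of 4 mice (log2 difference 0.42 ± 0.04). The 2 ranges, 20.1 to 29.6 and 27.4 to 40.2, overlapped across mice. Spink1 itself was at 2986, 1033, 2885 and 2659 CPM, which was -0.19 ± 0.22 from Acinar cells, and summed trypsinogen was at 89875, 37700, 71678 and 85927 CPM (-0.61 ± 0.24). With acinar enzymes left out of the total the differences were -0.54 ± 0.29 for Spink1 and -0.96 ± 0.31 for trypsinogen. Not all trypsinogens took part equally. Try4 differed from Acinar cells by -0.25 ± 0.15, while Try5 differed by -0.99 ± 0.29 and Prss3 by -1.06 ± 0.36.

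**Figure D2:**
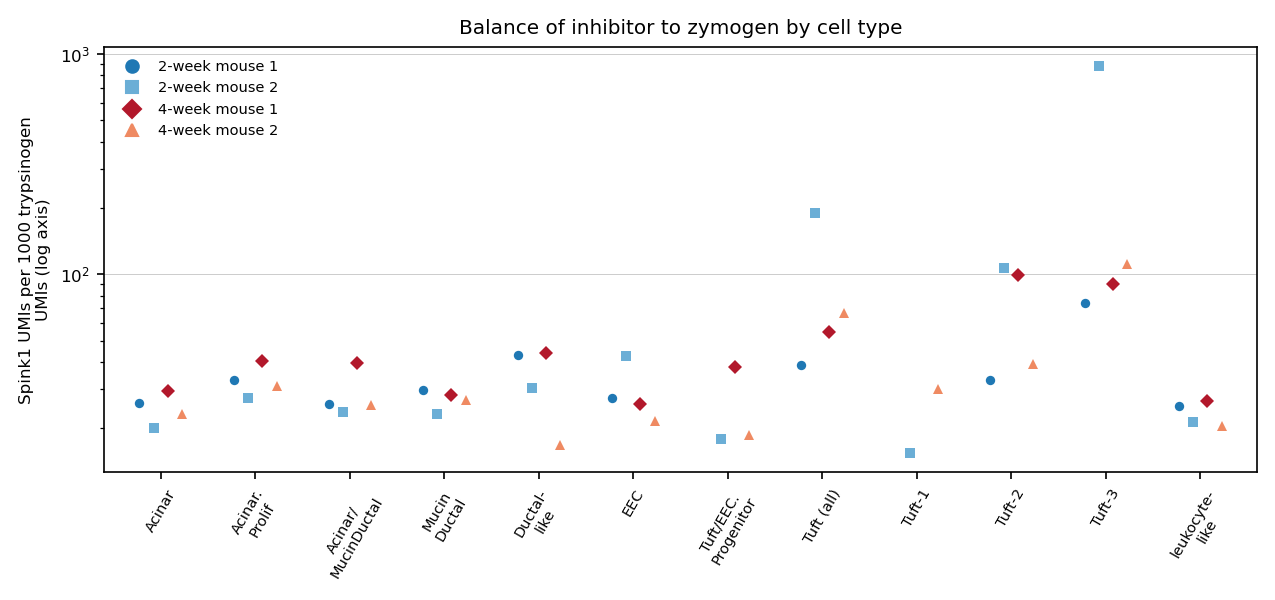
Spink1 UMIs per 1000 UMIs of the 7 trypsinogens (log axis) by deposited type and tuft subtype; each symbol is 1 mouse and groups under 20 cells are not drawn. Acinar, Acinar/MucinDuctal, MucinDuctal and leukocyte-like cells lie between 20.1 and 39.6, and Tuft-3 cells between 74.4 and 879.

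Acinar cells with more trypsinogen also held more Spink1. The Acinar cells of each mouse were sorted by the share of trypsinogen among their UMIs and cut into 4 bins of equal size. From the lowest to the highest bin, summed trypsinogen went from 34829 to 173006 CPM in 2-week mouse 1, from 7030 to 130404 in 2-week mouse 2, from 30608 to 150479 in 4-week mouse 1 and from 53019 to 210180 in 4-week mouse 2; these values were used for sorting and are given as a description. Spink1 went from 2222 to 3699 CPM, from 247 to 2344, from 2010 to 3402 and from 1897 to 4244 in the same order. It was thus higher in the highest bin in 4 of 4 mice, by 1.67-, 9.47-, 1.69- and 2.24-fold, against 4.97-, 18.6-, 4.92- and 3.96-fold for trypsinogen. With acinar enzymes left out of the total Spink1 was higher by 2.95-, 16.9-, 2.88- and 3.88-fold. Spink1 per 1000 trypsinogen UMIs was 63.8, 35.2, 65.7 and 35.8 in the lowest bin and 21.4, 18.0, 22.6 and 20.2 in the highest. The sorting sets part of that difference, since trypsinogen is the denominator, and it also widens the spread of trypsinogen over the bins. Without sorting, the share of a cell's UMIs ran from 2.17 to 19.1% for trypsinogen and from 0.0541 to 0.647% for Spink1 between the 5th and 95th percentile of cells in 2-week mouse 1. Relative to its lower end the range was not narrower for Spink1 in any of the 4 mice, and the part of its lower counts in that range was not tested.

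**Figure D3:**
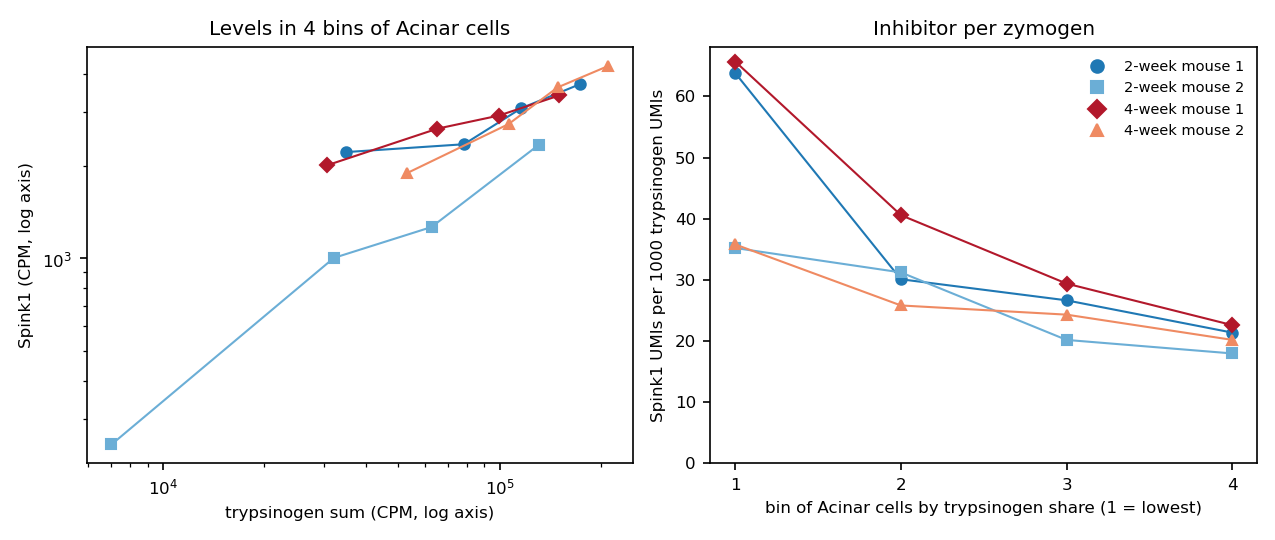
Acinar cells of each mouse (1 line per mouse) in 4 equal bins by trypsinogen share. Left, Spink1 against summed trypsinogen, both in CPM on log axes; right, Spink1 UMIs per 1000 trypsinogen UMIs, highest in bin 1 (35.2 to 65.7) and lowest in bin 4 (18.0 to 22.6).

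Most cells of the lowest bin belonged to one author cluster of Acinar cells, cluster 8, in 3 of 4 mice (65.8, 94.5 and 53.9%, against 33.2% in 4-week mouse 2). Cluster 8 held 37964, 23475, 31158 and 31294 CPM of trypsinogen. Its Spink1 was at 2915, 546, 2964 and 1764 CPM. By CPM this was close to the whole Acinar type in 2-week mouse 1 and 4-week mouse 1 and below it in the other 2 mice. Per cell it was lower in the first 2 mice as well. In 2-week mouse 1, 285 cluster 8 cells held 13799 Spink1 UMIs, against 151544 in 1461 Acinar cells. In 4-week mouse 1, 120 cells held 6402, against 74833 in 762. Per 1000 trypsinogen UMIs, cluster 8 held 76.8, 23.3, 95.1 and 56.4 of Spink1. The log2 ratio minus that of Acinar cells was 1.19 ± 0.67 (above 0 in 4 of 4 mice, 0.21 in 2-week mouse 2). The 6 acinar markers Cpa1, Cel, Ptf1a, Rbpjl, Bhlha15 and Nr5a2 summed to between 17307 and 22657 CPM in cluster 8 and to between 25422 and 30653 in cluster 0, the most numerous Acinar cluster. None of the 6 was at 0 in either. Acinar enzymes summed to 314945 to 391915 CPM in cluster 8 and to 578645 to 642625 in cluster 0. By CPM the mucin and ductal markers were higher in cluster 8, at 2876 to 3903 against 2117 to 2720. So were the proliferation markers, at 33.9 to 108 against 12.5 to 33.1. Acinar enzymes took up less of the total in cluster 8, which raises the CPM of all other genes there. The marker sums were not taken with the enzymes left out of the total, so these orders may depend on the scaling. Immediate-early genes, which respond to stress and handling, had a higher mean in cluster 8, 1115 ± 905 CPM against 535 ± 403 (SD, n = 4). Their ranges across mice, 573 to 2461 and 280 to 1133 CPM, overlapped. The median depth of cluster 8 was 12983 to 20645 UMIs, against 24782 to 30753 in cluster 0, and the part of depth or of other cell contents in this ratio was not tested. Cluster 6, the cluster with the most Try5, had the lowest balance of the Acinar clusters, 21.3, 17.6, 24.2 and 21.4 (log2 difference -0.22 ± 0.08).

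The shares of Try4 and Prss2 in the trypsinogen pool followed the mouse. Try4 made up 42.8, 26.5, 39.0 and 30.9% of trypsinogen UMIs in Acinar cells, 47.7, 27.7, 45.6 and 34.4% in Acinar/MucinDuctal cells and 49.96, 35.6, 46.3 and 39.0% in leukocyte-like cells. Prss2 made up 23.3, 37.0, 27.3 and 21.3% in Acinar cells and 22.0, 33.9, 24.8 and 20.7% in leukocyte-like cells. The mice stood in the same order in both kinds of cell, with 2-week mouse 2 the lowest for Try4 and the highest for Prss2. Trypsinogen in leukocyte-like cells is taken as free acinar RNA of the same mouse, so this shared order is not a separate observation.

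The closest pair, Try4 and Try5, did differ between acinar clusters. Over all Acinar cells there were 0.566 and 1.04 Try5 UMIs per Try4 UMI at 2 weeks and 0.657 and 1.13 at 4 weeks. In cluster 6 the values were 0.821, 2.06, 1.96 and 2.06, in cluster 0 they were 0.454, 0.906, 0.552 and 0.768, and in cluster 8 they were 0.268, 0.521, 0.417 and 0.407. In each of the 4 mice the order was cluster 6, then 0, then 8. Proliferating cells (cluster 5) lay slightly above cluster 8, at 0.373, 0.650, 0.423 and 0.544. Try5 outnumbered Try4 in 42.8 to 84.1% of cluster 6 cells and in 3.86 to 38.3% of cluster 8 cells. Since all genes entered the clustering, the difference is a description.

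**Figure D4:**
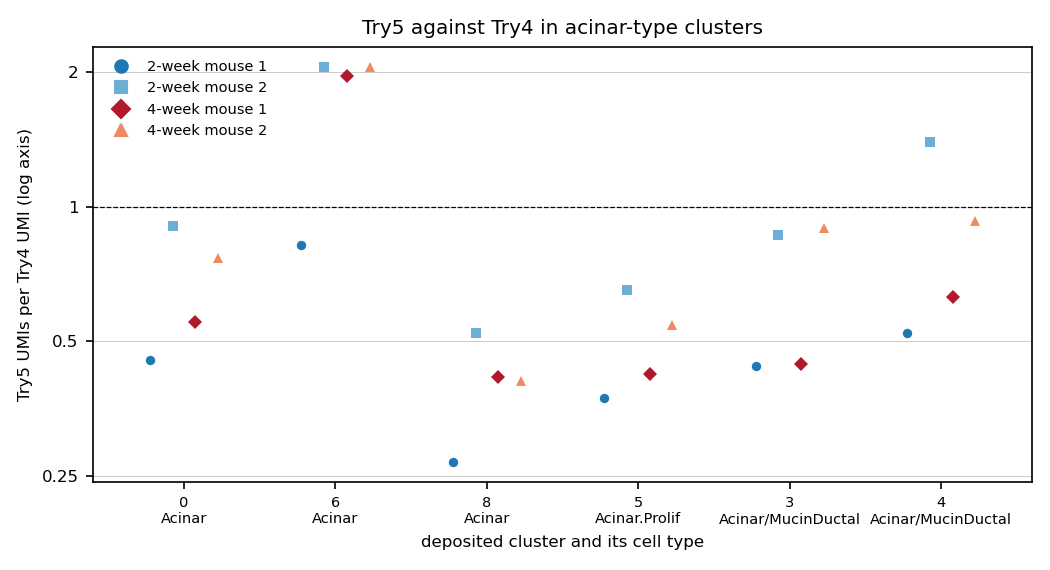
Try5 UMIs per Try4 UMI (log axis) in the author clusters of acinar types; each symbol is 1 mouse and the dashed line marks equal UMIs. Cluster 6 is the highest Acinar cluster in each mouse and lies above the line in 3 of 4, and cluster 8 lies between 0.268 and 0.521.

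Tuft cells, chemosensory cells that arise among the labelled cells, had more Spink1 for their trypsinogen than Acinar cells. All Tuft cells together held 38.8 and 190 Spink1 UMIs per 1000 trypsinogen UMIs at 2 weeks and 54.6 and 66.8 at 4 weeks, above Acinar and leukocyte-like cells of the same mouse in 4 of 4 mice (log2 difference from Acinar 1.56 ± 1.19, and 1.00 ± 0.483 without 2-week mouse 2). Spink1 was at 145, 173, 102 and 187 CPM. Trypsinogen UMIs per cell were 1.42 ± 0.460 times the leukocyte-like level, whereas Spink1 UMIs per cell, at 2.98, 3.49, 1.59 and 3.04, were between 2.15 and 17.2 times that level. Tuft cells were deeper, with a median of 18324 UMIs against 4646. By CPM their Spink1 was 0.685, 5.30, 1.09 and 0.884 times that of leukocyte-like cells, and their trypsinogen 0.446, 0.595, 0.529 and 0.270 times. Thinned to 1500 UMIs, Tuft cells held 0.236, 0.246, 0.190 and 0.290 Spink1 UMIs per cell and leukocyte-like cells 0.402, 0.0706, 0.178 and 0.379. The Spink1 level was thus above the background in 4 of 4 mice per cell and in 2 of 4 by CPM or after thinning, which both scale down free RNA in deeper cells. If all Spink1 in Tuft cells came in the ratio of the leukocyte-like cells, 161, 261, 164 and 298 UMIs would be expected, and 247, 2322, 338 and 973 were counted, which is 1.54, 8.90, 2.06 and 3.27 times as many. The 95% exact Poisson intervals were 1.35 to 1.74, 8.55 to 9.27, 1.85 to 2.30 and 3.07 to 3.48, with the leukocyte-like ratio taken as exact.

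The balance was also taken in the authors' tuft subtypes. Tuft-3 cells held 74.4, 879, 90.7 and 111 Spink1 UMIs per 1000 trypsinogen UMIs, with Spink1 at 165, 469, 79.6 and 248 CPM. Tuft-2 cells held 33.0, 107, 99.2 and 39.3, so that Tuft-3 was above Tuft-2 in 3 of 4 mice and below it in 4-week mouse 1, and their ranges overlapped. The Tuft-2 value of that mouse rests on 77 Spink1 UMIs. Cells with 10 or more, 3 of 56, held 58.4% of them, against 28.1% in 3 of 113 Tuft-3 cells. Tuft-1 cells reached 20 cells in 1 mouse of each group and held 15.4 and 30.2, below and above the leukocyte-like range of 20.4 to 26.5. In 2-week mouse 2, which gave the 15.4, 5 of 166 Tuft-1 cells carried mainly Prss3. These cells held 97.2% of the Tuft-1 Prss3 UMIs of that mouse, which count as trypsinogen, and their part in the 15.4 was not tested. Against the ratio of leukocyte-like cells, Tuft-3 cells had 2.95, 41.1, 3.43 and 5.44 times the expected Spink1. The 95% exact Poisson intervals were 2.42 to 3.56, 39.2 to 43.1, 2.86 to 4.07 and 5.03 to 5.87, which cover counting error of Spink1 only. Without 2-week mouse 2 the log2 ratio of Tuft-3 minus Acinar was 1.80, against 2.71 ± 1.86 with it.

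Much of the Tuft Spink1 sat in few cells, most of them in 2-week mouse 2. A minimum of 10 Spink1 UMIs, chosen after the values had been seen, was met by 85 of 1280 Tuft cells (6, 57, 9 and 13 by mouse), and these held 45.3, 76.7, 41.4 and 50.2% of the Tuft Spink1 UMIs of their mouse. The highest single cell held 229 Spink1 UMIs, in 2-week mouse 2. The median trypsinogen content of these cells was 124, 9, 18 and 51 UMIs by mouse, against 44, 9, 10 and 31 UMIs over all Tuft cells. It was thus equal in 2-week mouse 2 and higher in the other 3 mice. By subtype they were 55 of 494 Tuft-3, 15 of 457 Tuft-2 and 0 of 210 Tuft-1 cells (0 allows a share of up to 1.43% for counting error only, and 166 of the 210 came from 2-week mouse 2), and 15 of 106 without a subtype. Those without a subtype differed, with a median of 306 trypsinogen UMIs. All Tuft cells without a subtype held 6 acinar markers at a sum of 2429 to 3037 CPM and acinar enzymes at 39954 to 54150 CPM in the 3 mice with at least 20 such cells, against 3781 to 9541 CPM of acinar enzymes in Tuft-3 cells. The part of this acinar RNA in their Spink1 was not tested.

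The same minimum was met in other types. It was reached by 7 of 139 Ductal-like cells (5.04%, with 5 of the 7 in 2-week mouse 1), against 6.64% of Tuft cells. It was also reached by 23 of 1208 EEC cells, 9 of 3983 MucinDuctal cells and 13 of 2647 leukocyte-like cells. Their median trypsinogen content was 363, 655, 148 and 512 UMIs in this order, against 37, 23, 18 and 17 UMIs over all cells of these kinds. None of them held more Spink1 than trypsinogen. Of the Tuft cells 0 of 6, 47 of 57, 3 of 9 and 2 of 13 did by mouse, so this contrast rests mostly on 2-week mouse 2, the mouse with the least free trypsinogen. In Tuft-3 cells the 6 acinar markers summed to 269 to 479 CPM, against 293 to 634 in MucinDuctal cells, and 1 of the 6 was at 0 in Tuft-3 cells of 2-week mouse 1. The 12 leukocyte genes summed to 2909 to 3233 CPM in Tuft-3 cells, against 6362 to 7494 in leukocyte-like cells, with Ptprc at 25.8 to 82.6 CPM over all Tuft cells. Their part in the Spink1 level was not tested.

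**Figure D5:**
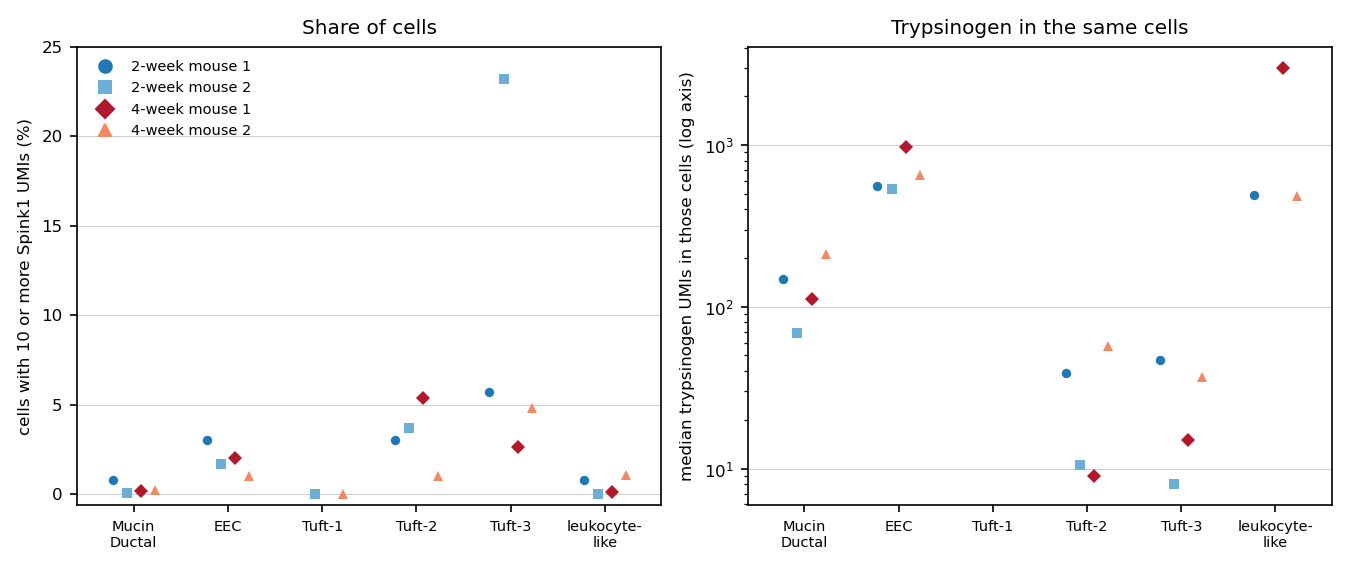
Left, percent of cells with 10 or more Spink1 UMIs; right, median trypsinogen UMIs in those cells (log axis); each symbol is 1 mouse, mice without such cells are left out on the right and groups under 20 cells on both sides. Tuft-3 cells of 2-week mouse 2 reach 23.2%, and the medians on the right are 8 to 57 in Tuft-2 and Tuft-3 cells and at least 533.5 in EEC cells.

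The remaining types lay closer to the background than to Acinar cells. Ductal-like cells (22 to 56 per mouse) held 4154, 586, 2875 and 4747 CPM of trypsinogen and 179, 17.9, 127 and 79.4 CPM of Spink1. Per cell this was 2.54 ± 0.465 times the leukocyte-like trypsinogen, at a median depth of 8889 to 38506 UMIs, and by CPM 0.497, 0.383, 0.816 and 0.460 times. Their balance was 43.2, 30.6, 44.0 and 16.7, above that of Acinar and leukocyte-like cells in 3 of 4 mice. Against the ratio of leukocyte-like cells this was 1.71, 1.43, 1.66 and 0.819 times the expected Spink1. EEC cells held 5380, 1922, 3002 and 4975 CPM of trypsinogen, 1.87 ± 0.755 times the leukocyte-like level per cell and 0.643, 1.26, 0.852 and 0.482 times by CPM, and 147, 81.9, 77.6 and 108 CPM of Spink1. Their balance was 27.3, 42.6, 25.9 and 21.6, with 2-week mouse 2 alone outside the range of Acinar cells. In that mouse 6 of 359 EEC cells, those with 10 or more Spink1 UMIs, held 66.7% of the EEC Spink1 UMIs. These cells had a median of 533.5 trypsinogen UMIs.

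Partners of the trypsinogens were read in the same cells. Acinar enzymes made up on average 544179 CPM of Acinar, 249182 of Acinar/MucinDuctal and 24753 of MucinDuctal cells, which bears on the CPM of all other genes, and values with these enzymes left out of the total are given too. The 7 enzymes listed as activating or degrading trypsinogen are described one by one. Chymotrypsin C (Ctrc), which degrades trypsinogen, was at 3439 ± 668 CPM in Acinar, 1633 ± 297 in Acinar/MucinDuctal and 47.2 ± 13.5 in MucinDuctal cells, close to the course of Spink1. Cathepsin B (Ctsb), which can activate trypsinogen, was at 95.5 ± 11.9, 228 ± 42.2 and 328 ± 85.2 CPM along the same types and at 1563 ± 414 in leukocyte-like cells. Without the enzymes in the total it was at 209, 303 and 337, the same order with a smaller difference. Cathepsin D (Ctsd) was at 76.1 ± 12.1, 164 ± 28.1 and 211 ± 33.4 CPM, and without the enzymes at 167, 218 and 217, with no difference between the last 2 beyond their spread. Cathepsin L (Ctsl) had another course, at 172 ± 33.3, 171 ± 13.1 and 221 ± 13.6 CPM, and without the enzymes at 382, 228 and 227, so that its order depends on the scaling. The chymotrypsinogens Ctrb1 and Ctrl were lower along these types. Ctrb1 was at 229525 ± 29443, 101440 ± 17239 and 9223 ± 1885 CPM, the last close to the 8828 ± 4455 of leukocyte-like cells. Ctrl was at 9480 ± 1525, 4345 ± 499.6 and 143 ± 77.3 CPM. Enteropeptidase (Tmprss15) was at most 0.230 CPM in mean over the types.

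Of 15 other protease inhibitors measured, those named here did not share one pattern, and the rest are not described. Serpini2, an acinar serpin, was at 583 ± 132 CPM in Acinar, 246 ± 61.2 in Acinar/MucinDuctal and 9.45 ± 5.81 in MucinDuctal cells. Spink4, a relative of Spink1 found in mucous cells, was at 10.0 ± 5.88, 214 ± 39.1 and 521 ± 153 CPM, and at 10.8 ± 6.51 in leukocyte-like cells. Spint2, a membrane inhibitor of trypsin-like proteases, was at 303 ± 29.3, 600 ± 34.9 and 965 ± 96.4 CPM and reached 1350 ± 141 in Tuft cells. Without the enzymes Spint2 was at 667, 801 and 990 in the 3 types. The receptor that trypsin cleaves, F2rl1, was at 0.869 ± 0.500, 7.11 ± 1.09 and 14.3 ± 3.93 CPM. Without the enzymes the log2 differences of MucinDuctal from Acinar cells were 3.05 for F2rl1, 4.74 for Spink4, -7.22 for Serpini2 and -7.32 for Ctrc. Cckar, the receptor through which caerulein acts, was at 219 ± 41.3 CPM in Acinar and 405 ± 32.6 in Acinar.Prolif cells.

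Genes most like Spink1 and Try4 were other acinar enzymes and 2210010C04Rik, a gene of the trypsinogen cluster. Over 31 sums of mouse and type, the log2 levels closest to Spink1 among 8041 genes were those of Cela2a (Pearson r = 0.970), Cela3b (0.969), Ctrl (0.966), 2210010C04Rik (0.965) and Pnlip (0.965). With Try4 they were 2210010C04Rik (0.993), Cela3b (0.992), Pnlip (0.989), Cela2a (0.988) and Ctrl (0.985). Spink1 had r = 0.965 with Try4 and 0.880 with Prss1, the lowest of the members. The points share libraries and free RNA, so these values are descriptions.

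Between 2 and 4 weeks of caerulein none of the 8 genes passed edgeR's quasi-likelihood test at an adjusted p of 0.05 in any of the 7 types tested. In Acinar cells edgeR called 0 of 12343 genes (0%), with 344 at an unadjusted p under 0.05 (2.79%), and DESeq2 called 15. Estimates for the 8 were all above 0 there, from 0.55 for Prss2 to 1.29 for Gm2663 on the log2 scale, with Spink1 at 0.88 (SE 0.488, adjusted p = 0.998). With total UMIs in place of TMM scaling the median of all genes moved to -0.48, and the members lay between 0.11 (Prss2) and 0.85 (Gm2663), above that median. Without 4-week mouse 2 the estimates for Prss1, Prss3 and Gm5771 turned to -0.70, -0.25 and -0.33.

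Gm2663 had the lowest unadjusted p of the members in Acinar cells. It was at 3136 and 3586 CPM in Acinar cells at 2 weeks and at 4752 and 7330 CPM at 4 weeks, with no overlap. The log2 difference was 1.29 (SE 0.357), and edgeR's quasi-likelihood test gave an adjusted p of 0.998. DESeq2 gave 1.32 with an adjusted p of 0.00163, its only call among the 8 members in the 7 types. By edgeR the unadjusted p was under 0.05 for Gm2663 in Acinar and Acinar.Prolif cells (log2 difference 1.13, SE 0.314), and for no other member in any of the 7 types. In all, by CPM without TMM factors, both 4-week mice were above both 2-week mice for 0.762% of the 12343 genes in Acinar cells. The same held for Gm2663 in Acinar.Prolif (4.39% of genes), Acinar/MucinDuctal (9.74%), Ductal-like (16%) and EEC cells (8.85%), and for no other member in any type (9.54% of genes in MucinDuctal and 18.2% in Tuft cells). No member had both 4-week mice below both 2-week mice, an order held by 61.8% of genes in Acinar, 27.3% in Acinar.Prolif, 22.6% in Acinar/MucinDuctal, 18.7% in Ductal-like, 23.6% in EEC, 30.2% in MucinDuctal and 17.3% in Tuft cells. All these shares are of CPM without TMM factors. On that scale the median log2 difference of all genes in Acinar cells was -0.48, against -0.03 with TMM, so the shares depend on the scaling. Values in Ductal-like and EEC cells are near the background, and the types share mice, so the 5 types are not independent.

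In the other types edgeR called 1 of 10046 genes in Acinar.Prolif (0.00995%) and 0 of 11620 in Acinar/MucinDuctal, 0 of 8748 in Ductal-like, 0 of 11869 in EEC, 0 of 13463 in MucinDuctal and 0 of 10967 in Tuft cells (0% each). Unadjusted p-values under 0.05 were reached by 2.45% of genes in Acinar.Prolif, 3.42% in Acinar/MucinDuctal, 5.27% in Ductal-like, 4.04% in EEC, 5.39% in MucinDuctal and 6.73% in Tuft cells. DESeq2 called 2, 23, 0, 13, 40 and 31 genes in the same order. Spink1 had log2 differences of 0.57 in Acinar.Prolif, 0.65 in Acinar/MucinDuctal and -0.14 in Tuft cells, with SEs of 0.692, 0.377 and 0.341.

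The balance between inhibitor and zymogen overlapped between the time points in 6 of 7 types. The log2 ratio of Spink1 to trypsinogen in Acinar cells was -5.45 ± 0.26 at 2 weeks and -5.25 ± 0.25 at 4 weeks (SD, n = 2 each; two-sided exact permutation p = 0.667, adjusted p = 1 over 7 types). In Acinar/MucinDuctal cells it was -5.33 ± 0.09 and -4.97 ± 0.44 (exact permutation p = 0.667). The smallest p that 2 against 2 mice allow is 0.33, reached in EEC cells, so no type could pass. Of the partners, 0 of 6 tested activating or degrading enzymes, 0 of 6 inhibitors, 0 of 3 receptors and 0 of 4 other genes of the trypsinogen cluster passed edgeR's adjusted threshold in Acinar cells. There 0 of them had an unadjusted p under 0.05, and DESeq2 called 0. In EEC cells, where 4.04% of all genes had an unadjusted p under 0.05, so did 1 of 3 tested genes of the cluster, 3 of 6 activating or degrading enzymes, 0 of 7 inhibitors and 1 of 4 receptors. Their log2 differences were -1.07 for Try10, -0.57 for Ctrc, -0.58 for Ctrb1, -1.24 for Cckar and 0.44 for Ctsl. Trypsinogen in EEC cells lay near the background, and the part of free acinar RNA in these differences was not tested. In MucinDuctal cells (5.39% of all genes) 1 of 4 receptors did, F2r at -2.01, and none of the other partners tested. Neither edgeR's adjusted p nor DESeq2 called any of these genes.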

How the data were processed

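Sorted EYFP+ cells of 4 mice were profiled with 10x Genomics 3′ libraries. The authors deposited a merged matrix of raw UMI counts and a matrix filtered to YFP+ cells. They also deposited a label file with clusters and types, and another with Tuft and EEC subtypes. The 13362 typed cells are those of the filtered matrix. Cells without a type, the leukocyte-like cells among them, are in the merged matrix only. Per the submitters' processing notes, Cell Ranger 4.0.0, Seurat 3.2.3 and the build mm10 were used. The deposited cells had at least 1000 UMIs and at most 6.00% mitochondrial UMIs. How doublets were treated is not given in the sources used here, and none were removed here. No column of per-sample values was left unmatched.

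Counts were summed per mouse and type, the mouse being the replicate. Levels are CPM, UMIs per cell, and UMIs per cell as the mean over all draws of 1500 UMIs per cell, which leaves out shallower cells. Types with at least 20 cells in every mouse were tested for 4 against 2 weeks with edgeR 4.0.16 (quasi-likelihood, robust, TMM, filterByExpr, Benjamini-Hochberg adjustment, threshold 0.05) in R 4.3.3, with DESeq2 1.42.0 as the alternative. Calls were tested on simulated data. Ratios over time used a two-sided exact permutation test over all splits of the 4 mice into 2 against 2 (numpy 2.4.6). Total UMIs per mouse were 72459531 to 103610807. Poisson intervals cover counting error of the observed Spink1 only, with the leukocyte-like ratio taken as exact. Positions are GENCODE's on GRCm38, promoters RefSeq's on GRCm38.p6. The genes named outside the 8 come from lists of partners and the 5 genes most like Spink1 and Try4. The members and lists were chosen with earlier results of these data known. The labels name separate mice, so p-values measure the spread between 2 mice a group.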

Additional observations from a re-analysis of the deposited data

How the results depend on the processing

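No paired analysis was possible because the replicate numbers of the 2 groups only name mice in the order of their deposit. Of 332 alternative values, 253 were rated the same. This took a kept direction and side of the threshold, counts within 1.5 times, and ratios and levels between types within 1 SD. Of the rest, 70 moved further without a reversal, 8 reversed direction and 1 came to pass the threshold. Counts of genes called over time often moved: DESeq2 called 15 in Acinar, 2 in Acinar.Prolif, 23 in Acinar/MucinDuctal, 13 in EEC, 40 in MucinDuctal and 31 in Tuft cells. Without a filter on low counts edgeR called 286, 51, 128, 74, 6 and 266 in the same order and 81 in Ductal-like cells. Without TMM factors, chosen after seeing the data, it called 9 in Acinar, 2 in Acinar.Prolif, 3 in Acinar/MucinDuctal and 7 in EEC cells, and without robust fitting 0 in Acinar.Prolif cells. Leaving out 1 mouse, the lone mouse being assumed to vary like the other group, gave 13 to 129 calls in Acinar, 5 to 143 in Acinar.Prolif, 0 to 122 in Acinar/MucinDuctal, 0 to 230 in Ductal-like, 0 to 366 in EEC, 0 to 191 in MucinDuctal and 5 to 273 in Tuft cells. The cause was not tested.

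Without 4-week mouse 2 the time estimates in Acinar cells reversed for Prss1, Prss3 and Gm5771, whose spread between mice is the widest. Those of the other members kept their direction with any 1 mouse left out. The estimates that reversed ran from -0.70 to 1.74 for Prss1, from -0.25 to 2.16 for Prss3 and from -0.33 to 2.32 for Gm5771. The upper values are without 2-week mouse 1. The log2 ratio of Spink1 to trypsinogen in MucinDuctal minus Acinar cells reversed to -0.15 after thinning. Over time that ratio reversed after thinning in Acinar/MucinDuctal cells (-0.0042), and with 1 mouse left out it ran from -0.11 to 0.25 in MucinDuctal, from -1.12 to 0.28 in Ductal-like and from -1.66 to 0.64 in Tuft cells. In Acinar.Prolif cells the ratio minus Acinar was 0.35 with all cluster genes, 0.50 with Prss2 alone and 0.36 after thinning. With background subtracted it was 0.40 in Acinar/MucinDuctal cells (all untyped cells) and 2.94 in Tuft cells (5 markers). Leaving acinar enzymes out of the total moved trypsinogen minus Acinar to -0.96 in Acinar.Prolif, -2.02 in Acinar/MucinDuctal, -7.47 in MucinDuctal and -6.77 in Tuft cells, and Spink1 to -0.54, -1.82, -7.33 and -5.21. After thinning Spink1 in Acinar/MucinDuctal cells was -1.22. Subtraction of a background gave no ratio for MucinDuctal and Tuft-3 cells under any of the 3 backgrounds, and none for Tuft cells under 2 of them, because some mice lay at or below it. For the same reason cluster 4 gave none with all untyped cells as the background, where only 2 mice had a value. The differences of 7 partner genes from Acinar cells, in Acinar/MucinDuctal and MucinDuctal cells, kept their direction with enzymes left out of the total, a choice made after seeing the data, but each moved by more than its spread.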

Other observations

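A few cells, nearly all of them MucinDuctal or Tuft cells, carried mainly Prss3. Taking cells with at least 10 Prss3 UMIs and more Prss3 than the other 6 trypsinogens together, a rule chosen after the values were seen, gave 24 of 13362 typed cells: 13 MucinDuctal, 9 Tuft, 1 Acinar/MucinDuctal and 1 Ductal-like. They came from all 4 mice, 4, 11, 4 and 5 by mouse. None of 3698 Acinar, 894 Acinar.Prolif or 1208 EEC cells met the rule, and none of the 7778 untyped cells did. In Acinar and Acinar.Prolif cells the rule could hardly be met, since they held a median of 2225 and 1561.5 UMIs of the other trypsinogens. The 24 cells held 11 to 689 Prss3 UMIs with a median of 44.5, beside a median of 20 UMIs of the other trypsinogens. Of these cells 1 also held 10 or more Spink1 UMIs. The 9 Tuft cells carried 50.8% of all Prss3 UMIs of Tuft cells, and in 2-week mouse 2 there were 6 such cells with 82.5%. Prss3 shares a run of 131 bases with Gm5771 at its transcript end, so the assignment of UMIs to Prss3 is uncertain.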
